A study of Mus musculus with 12 samples.

Results

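The genes described here are 38 splicing factors and heterogeneous nuclear ribonucleoproteins (hnRNPs), chosen by name with earlier results of these data known. All 38 were found among the 46882 gene names of the count table, and all 38 were among the 16910 genes with enough reads to be tested. They comprise 10 SR proteins, 2 Tra2 proteins, 12 hnRNPs (Ptbp1 included), 7 tissue regulators of splicing, 3 proteins that recognise the 3' end of the intron, 2 other RBM proteins and 2 cold-inducible RNA-binding proteins. The mice were of the C57BL/6 strain, were 6 to 8 weeks old and were either wild type (WT, n = 6) or A1cf -/- (here A1cf KO, n = 6), and RNA of the whole kidney was sequenced. The labels name no treatment, give no sex, do not describe how the A1cf allele was made, and call the 6 kidneys of each genotype biological replicates.

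Splicing removes introns from pre-mRNA in a large complex, the spliceosome, whose choice of sites is set by proteins bound to the exon and the flanking intron. SR proteins mostly promote the use of nearby sites and hnRNPs often oppose it, so that the balance of both families helps to fix which exons enter an mRNA. Many of these genes also control their own level through transcripts with a premature stop codon that are removed by nonsense-mediated decay. A1cf itself encodes an RNA-binding protein with RNA recognition motifs, the fold that most proteins named here share, and it is not counted among the 38.

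The libraries are named by the number in their title. These numbers form a low series (573 to 602, with 3 WT and 5 A1cf KO libraries) and a high series (776 to 780, with 3 WT libraries and A1cf KO 780), and no label says what the numbers stand for beyond the kidney. Total counts ran from 26671705 to 52899139 per library, and the members had between 413 reads (Srsf4) and 26276 reads (Hnrnpa2b1) in a library. Levels are given in CPM, counts scaled to a common library total with TMM factors. A1cf averaged 54.5 ± 7.39 CPM (SD) over the 6 WT libraries and 4.11 ± 1.07 CPM over the 6 A1cf KO libraries, and each library matched its genotype label. Reads of every marker list of kidney cell types were found. The 8 thick ascending limb markers were lower in A1cf KO (8 of 8 negative, 0 past the threshold of an adjusted p of 0.05), with summed levels of 4972 to 7261 CPM in WT and 3774 to 4784 CPM in A1cf KO. The 5 endothelial markers were higher in the high number series (5 of 5, 4 past the threshold), at 176 to 219 CPM against 108 to 174 CPM. Mitochondrially encoded genes took 10.2 ± 0.99% of counts in WT and 11.7 ± 0.58% in A1cf KO. In whole kidney, fewer cells of a type and less RNA per cell cannot be told apart.

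Each of the 38 genes was well expressed, at mean levels from 14.8 CPM (Srsf4) to 446 CPM (Hnrnpa2b1). Levels of different genes are compared here per kilobase (kb) of counted exon. That length pools the exons of all annotated transcripts of a gene, so the order of genes depends on the annotation. Mbnl1 (59.6 CPM) has 18717 counted bases and U2af1 (51.0 CPM) has 974. On that scale Hnrnpa2b1, which encodes hnRNPs that bind and package nascent transcripts, was highest with 67.7 CPM per kb. It was followed by Srsf5, an SR protein, with 66.1 CPM per kb and by U2af1, the small subunit of the factor that reads the AG at the end of the intron, with 52.4 CPM per kb. Hnrnpa1, a widespread repressor of exon inclusion, was the fourth highest with 52.0 CPM per kb.

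The lowest levels per kb belonged to tissue regulators. Esrp1, which drives epithelial splice patterns, was at 2.64 CPM per kb, and its paralogue Esrp2 was at 11.1 CPM per kb. Rbfox2, which binds a short motif in introns beside regulated exons, was at 2.97 CPM per kb, and Mbnl1, a muscleblind protein, at 3.18 CPM per kb. Among the SR proteins the range was 4.16 (Srsf4, which shares 43.0% of its exon bases with another gene) to 66.1 CPM per kb. Together the 38 genes held 0.423 ± 0.0212% of scaled counts (SD) over the 6 WT libraries and 0.436 ± 0.0175% over the 6 A1cf KO libraries.

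**Figure D1:**
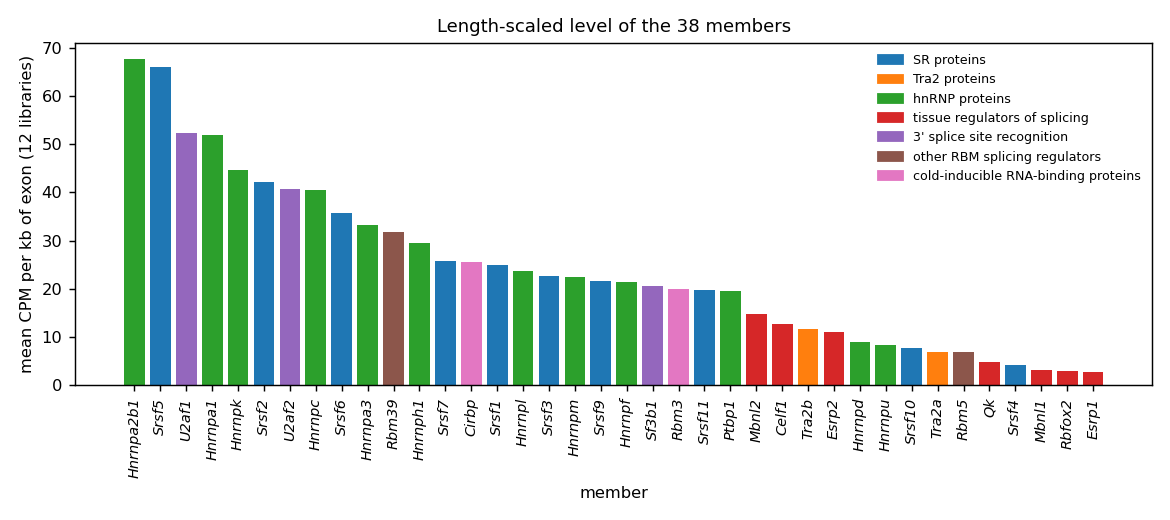
Mean level of each of the 38 members over the 12 libraries, in CPM per kb of counted exon (vertical axis), coloured by role and ordered from highest to lowest. Hnrnpa2b1 (67.7) and Srsf5 (66.1) lead, and Esrp1 (2.64) is the lowest.

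Some exon bases belong to more than 1 gene. Reads were counted without strand and with no option to keep reads that fall on several genes, which the counting program then leaves out, so counts and levels per kb of such genes can be too low. For Srsf4, 43.0% of the counted exon bases also lie in a gene on the opposite strand, as do 26.4% for Hnrnpf, 25.3% for Srsf2 and 16.3% for Ptbp1. Exons of Hnrnpm and Hnrnpu shared 24.9% and 30.8% of their bases with a gene on the same strand. Srsf10, Tra2a, Tra2b, Cirbp, Hnrnph1 and Rbm5 shared no exon base with another gene. Hnrnpa1 and Hnrnpa3 are known for near-identical processed pseudogenes, so their counts are uncertain to that extent.

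Promoters are shown for 4 members on which the results below turn, namely Tra2a (the one member past the threshold of any test for genotype), Srsf10 (the one past the edgeR threshold between number series), and Mbnl1 and Mbnl2 (the pair with the highest correlation across libraries). RefSeq (GRCm38.p6) gave a promoter, 250 bases before to 50 bases after a gene's start, for 33 of the 38 members. The other 5 were Esrp1, Esrp2, Rbfox2, U2af2 and Rbm3. Sequences run 5' to 3' on the gene's own strand, and capitals mark the CCAAT box (CCAAT), the GC box (GGGCGG) and the TATA box (TATAAA), searched on both strands. The Tra2a window is chr6:49264003-49264302 (minus strand), the Srsf10 window chr4:135855821-135856120 (plus), the Mbnl1 window chr3:60472580-60472879 (plus) and the Mbnl2 window chr14:120275419-120275718 (plus).
Tra2a: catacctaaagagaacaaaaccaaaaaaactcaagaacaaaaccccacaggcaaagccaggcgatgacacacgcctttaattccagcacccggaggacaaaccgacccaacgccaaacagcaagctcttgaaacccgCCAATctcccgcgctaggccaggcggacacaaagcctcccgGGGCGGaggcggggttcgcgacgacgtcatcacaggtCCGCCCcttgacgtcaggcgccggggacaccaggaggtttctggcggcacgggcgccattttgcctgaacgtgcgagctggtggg
Srsf10: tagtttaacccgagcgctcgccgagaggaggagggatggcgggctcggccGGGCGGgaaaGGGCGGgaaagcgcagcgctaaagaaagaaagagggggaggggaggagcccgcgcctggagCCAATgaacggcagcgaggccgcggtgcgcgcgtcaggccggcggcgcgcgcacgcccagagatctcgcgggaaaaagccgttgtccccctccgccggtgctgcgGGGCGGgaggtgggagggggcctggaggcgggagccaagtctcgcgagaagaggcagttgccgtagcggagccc
Mbnl1: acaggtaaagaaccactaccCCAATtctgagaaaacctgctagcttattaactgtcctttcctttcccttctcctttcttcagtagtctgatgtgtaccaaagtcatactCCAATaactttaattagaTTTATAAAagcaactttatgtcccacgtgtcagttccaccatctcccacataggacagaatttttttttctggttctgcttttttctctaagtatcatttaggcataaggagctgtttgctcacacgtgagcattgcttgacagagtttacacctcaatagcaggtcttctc
Mbnl2: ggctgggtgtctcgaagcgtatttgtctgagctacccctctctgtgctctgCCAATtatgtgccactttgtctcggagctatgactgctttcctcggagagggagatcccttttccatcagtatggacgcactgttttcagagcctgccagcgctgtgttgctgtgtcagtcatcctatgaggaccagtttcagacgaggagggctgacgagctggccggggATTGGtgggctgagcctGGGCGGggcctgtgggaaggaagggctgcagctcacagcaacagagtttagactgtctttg

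Tra2a had 1 CCAAT box and 2 GC boxes, and Srsf10 had 1 CCAAT box and 3 GC boxes in a window of 71.3% G and C. The muscleblind genes differed from each other. The Mbnl1 window had a GC content of 39.3%, 2 CCAAT boxes, no GC box and 2 TATA matches that overlap each other on opposite strands. The Mbnl2 window had a GC content of 56.3%, 2 CCAAT boxes and 1 GC box. Of the 33 member promoters, 57.6% held a CCAAT box, against 37.9% of the 11693 promoters of tested genes and 37.9% of all 27025 promoters. A GC box was in 72.7% of member promoters, against 61.0% of tested genes and 36.0% of all promoters, and a TATA box in 12.1%, against 7.63% and 14.2%. The members' median GC content was 62.3%, against 60.3% for tested genes. These are matches of letters in 1 window per gene and were not tested.

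The main comparison asked how the kidney transcriptome differs without A1cf. For the splicing factors the differences were small: no member passed the adjusted threshold of edgeR's quasi-likelihood test (0 of 38, against 8 of 16910 or 0.0473% of all genes tested). DESeq2's test called 1 member, Tra2a (1.01% of all genes). No member had WT and A1cf KO libraries that did not overlap (0.84% of all genes). Counted by an unadjusted p under 0.05, 6 members (15.8%) differed, against 10.4% of all genes. Of these, 5 had higher levels in A1cf KO (Tra2a, Hnrnph1, Srsf7, Tra2b and Rbm5) where 5.07% of all genes did, and 1 was lower (Cirbp) where 5.28% of all genes did. In simulated counts of this comparison the edgeR test recovered 48 of 200 genes changed 1.3-fold, 101 of 200 changed 1.5-fold and 147 of 200 changed 2-fold. At 1.3-fold DESeq2 recovered 80 of 200 and also called 23 unchanged genes, where edgeR called 1 unchanged gene. The changed genes were drawn from all genes tested, and recovery was not simulated for members alone. All genes tested had a median biological coefficient of variation of 0.145, against 0.091 for the members.

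Of the 38 members, 27 (71.1%) had a positive log2 fold change of A1cf KO relative to WT, with a median of 0.047, while 49.2% of all genes tested were positive with a median of -0.003. Without A1cf KO 780 the members' median was 0.03. The median over members had an SD of 0.0602 between libraries of a genotype. That is a spread of single libraries, and the error of a difference between genotype means was not computed. Members also vary together, since 493 of the 703 pairs had a positive correlation within genotype (median r 0.25), and the share of positive signs was not tested. Fold changes ran from -0.27 (Cirbp) to 0.34 (Tra2a). The 95% intervals of all 38 members lay within 1.5-fold of no change, and those of 34 lay within 1.3-fold (not Srsf4, Tra2a, Esrp1 and Cirbp). Of 7801 tested genes in the same range of mean CPM, 7457 and 6655 had intervals within these bounds. The spread between libraries of a genotype was also small, with a median biological coefficient of variation of 0.091 for members against 0.0975 for genes in that range.

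**Figure D2:**
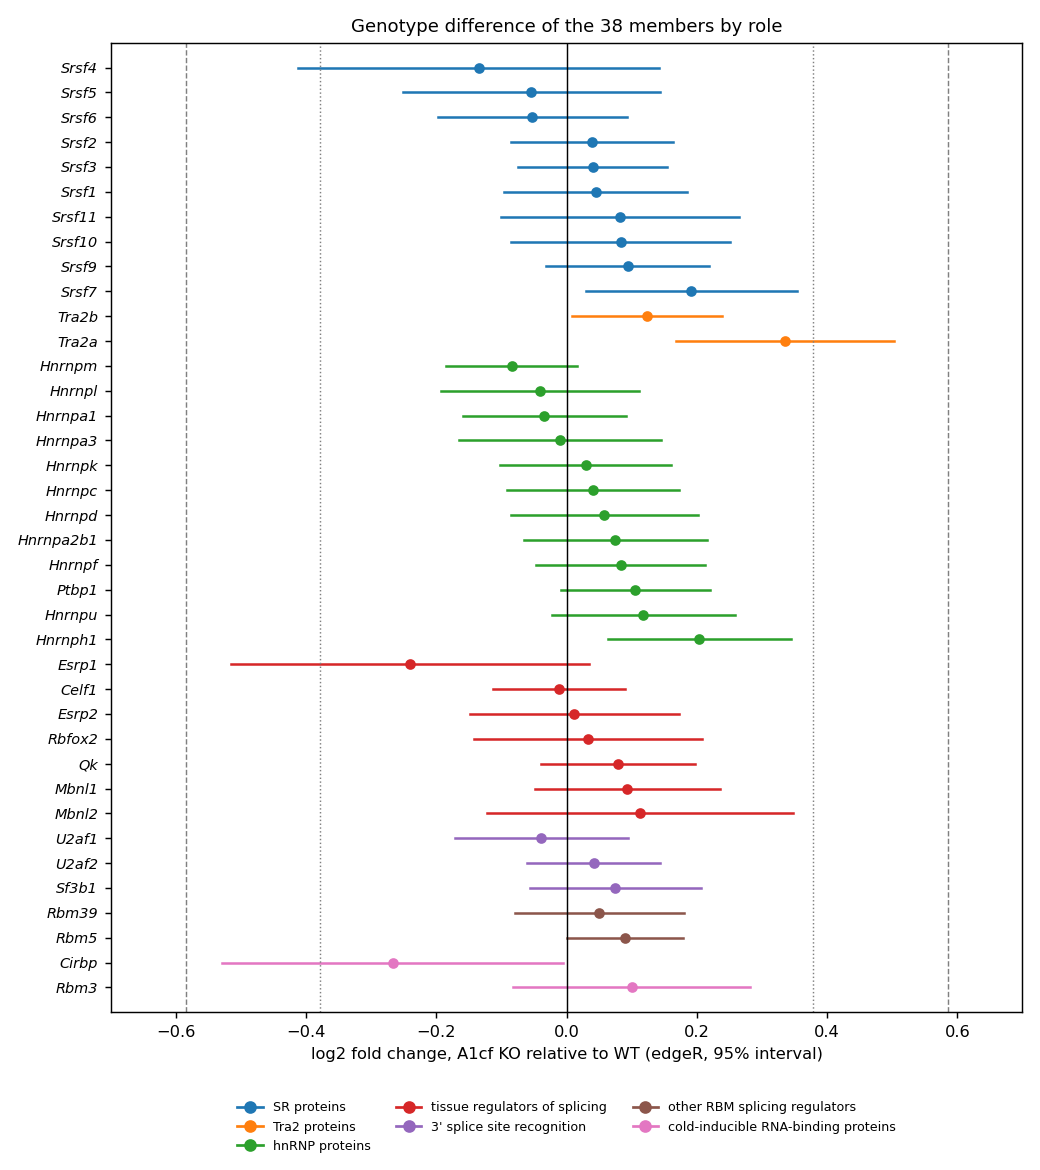
Log2 fold change of A1cf KO relative to WT (points) with its 95% interval (lines) for the 38 members, grouped and coloured by role; dotted and dashed lines mark 1.3-fold and 1.5-fold. All intervals stay inside 1.5-fold, and Tra2a (0.34) and Cirbp (-0.27) lie farthest from 0.

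Tra2 proteins bind GA-rich exonic enhancers and cooperate with SR proteins. The Tra2a gene lies at chr6:49243924-49264033 on the minus strand (mm10), and its counted exons cover 6945 bases in 8 segments. Tra2a ran from 38.8 through a median of 41.1 to 47.3 CPM in WT and from 44.9 through 52.1 to 64.3 CPM in A1cf KO. Of the 6 A1cf KO libraries, 5 lay above every WT library. Over 6 libraries each, WT averaged 41.9 ± 3.20 CPM and A1cf KO 52.9 ± 6.42 CPM (SD), a log2 fold change of 0.34 (SE 0.08, 95% interval 0.17 to 0.50, edgeR adjusted p = 0.168). DESeq2 gave the same fold change with an adjusted p of 0.0188. A1cf KO 780 was the highest library, and without it the log2 fold change was 0.27 (edgeR adjusted p = 0.249). Among libraries numbered 573 to 602 it was 0.19 (edgeR adjusted p = 0.63), and with the number series as a covariate 0.34 (edgeR adjusted p = 0.114).

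Tra2b, the paralogue of Tra2a, ran from 56.7 through 59.0 to 67.7 CPM in WT and from 61.6 through 66.5 to 68.6 CPM in A1cf KO. All 6 A1cf KO libraries exceeded the WT mean, and 2 exceeded every WT library. This gave a log2 fold change of 0.12 (SE 0.05, edgeR unadjusted p = 0.0373, adjusted p = 0.45). WT 590 was the highest WT library for both Tra2 genes.

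**Figure D3:**
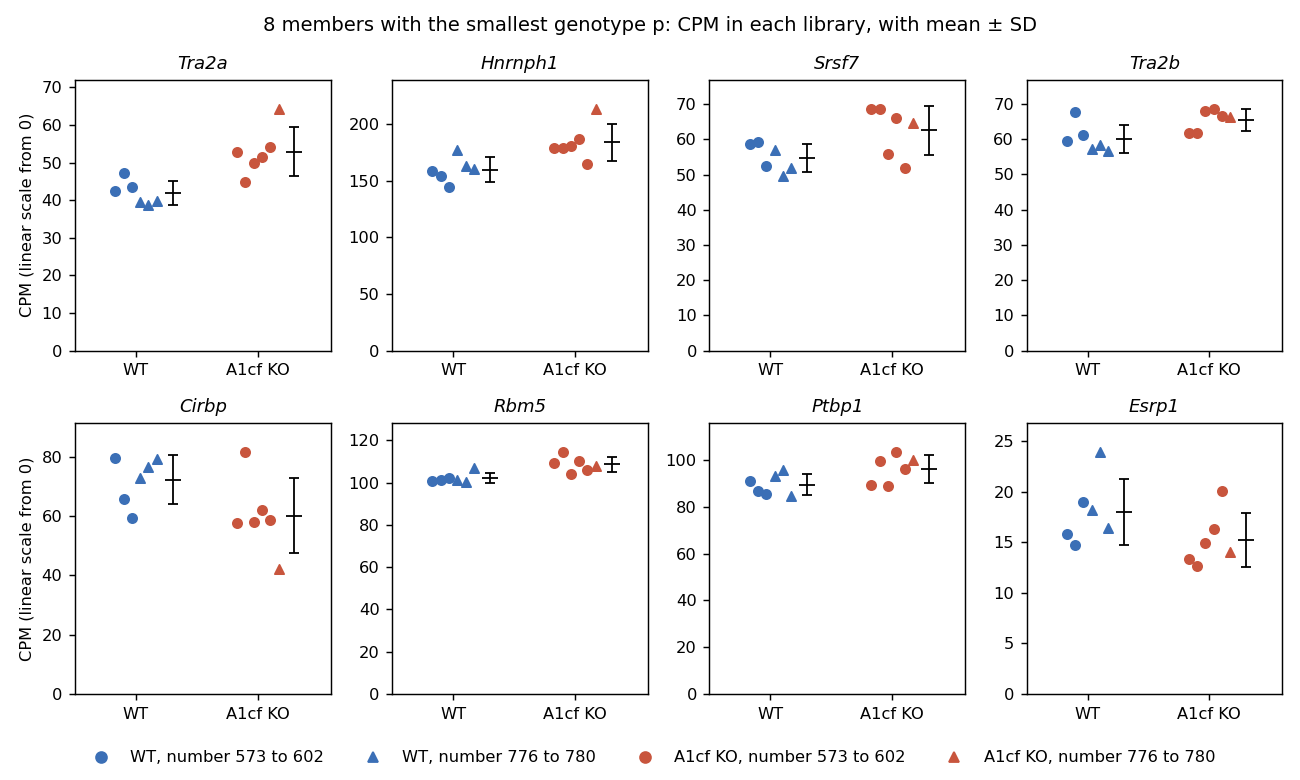
CPM in each library (vertical axes, linear from 0) for the 8 members with the smallest genotype p, WT in blue and A1cf KO in red, circles for numbers 573 to 602 and triangles for 776 to 780, with the mean and SD of each genotype. Tra2a reaches 64.3 CPM in A1cf KO 780 and Cirbp is at 42.2 CPM in the same library, and the genotypes overlap in all 8 panels.

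SR proteins carry arginine- and serine-rich domains and bind exons to recruit the spliceosome. None of the 10 passed the threshold, and 7 had positive fold changes (median 0.042, range -0.14 to 0.19). Srsf7, which also takes part in mRNA export, ran from 49.6 through 54.8 to 59.2 CPM in WT and from 52.0 through 65.3 to 68.7 CPM in A1cf KO. Its A1cf KO libraries split, with 4 above every WT library and A1cf KO 588 and 602 inside the WT range. The log2 fold change was 0.19 (SE 0.08, edgeR unadjusted p = 0.0243, adjusted p = 0.407).

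Srsf5 and Srsf2 were the SR proteins with the highest levels per kb. Srsf5 ran from 216 through 289 to 297 CPM in WT and from 233 through 254 to 292 CPM in A1cf KO, with a log2 fold change of -0.05 (95% interval -0.25 to 0.14). Srsf2, a nuclear SR protein that is mutated in some myeloid cancers, ran from 112 through 125 to 136 CPM in WT and from 120.0 through 125 to 138 CPM in A1cf KO, with a log2 fold change of 0.04 (95% interval -0.09 to 0.16). The genotypes overlapped over most of their range for both genes. Of the others, Srsf1, Srsf3, Srsf9, Srsf10 and Srsf11 had log2 fold changes between 0.04 and 0.09, and Srsf4 and Srsf6 had -0.14 and -0.05, with edgeR adjusted p from 0.603 (Srsf9) to 0.856 (Srsf1). Without A1cf KO 780, Srsf10 had 0.02 and Srsf11 had 0.001. Srsf4 changed sign with the number series as a covariate (0.01) and in libraries 573 to 602 (0.07).

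hnRNPs coat nascent transcripts and often hold exons back. None of the 12 passed the threshold and 8 had positive fold changes (median 0.049, range -0.08 to 0.20). Hnrnph1, which binds runs of G, was the one with the largest difference (chr11:50376990-50386528, plus strand, mm10). It ran from 145 through 159.8 to 178 CPM in WT and from 165 through 180.0 to 214 CPM in A1cf KO, and 5 of 6 A1cf KO libraries lay above every WT library. The log2 fold change was 0.20 (SE 0.07, 95% interval 0.06 to 0.34, edgeR adjusted p = 0.32). With the number series as a covariate it was 0.26 (edgeR adjusted p = 0.0873), and without A1cf KO 780 it was 0.16 (edgeR adjusted p = 0.47).

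Ptbp1, the polypyrimidine tract-binding protein that represses many neuronal exons outside neurons, ran from 84.9 through 88.8 to 95.8 CPM in WT and from 88.9 through 97.9 to 104 CPM in A1cf KO. Its log2 fold change was 0.11 (SE 0.05, edgeR adjusted p = 0.515), and 4 of 6 A1cf KO libraries lay above every WT library. Hnrnpa2b1 ran from 376 through 430.4 to 509.7 CPM in WT and from 430.1 through 462 to 474 CPM in A1cf KO. The A1cf KO range of Hnrnpa2b1 lay inside the WT range, which WT 601 and WT 573 set at both ends, and the log2 fold change was 0.08 (95% interval -0.07 to 0.22).

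Hnrnpa1 ran from 90.7 through 100.1 to 109.6 CPM in WT and from 92.0 through 95.9 to 109 CPM in A1cf KO, with a log2 fold change of -0.03 (95% interval -0.16 to 0.09). The A1cf KO libraries again stayed inside the WT range. Hnrnpm was the hnRNP with the lowest fold change, -0.08 (95% interval -0.18 to 0.02), and Hnrnpu, a scaffold protein of the nucleus, had 0.12 (95% interval -0.02 to 0.26). Hnrnpa3, Hnrnpc, Hnrnpd, Hnrnpf, Hnrnpk and Hnrnpl had log2 fold changes between -0.04 and 0.08.

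The tissue regulators set splice patterns that differ between cell types. Of the 7, none passed the threshold and 5 had positive fold changes (median 0.033). Esrp1 ran from 14.7 through 17.3 to 23.9 CPM in WT and from 12.7 through 14.5 to 20.1 CPM in A1cf KO. The genotypes overlapped, with 3 A1cf KO libraries below every WT library and A1cf KO 602 above the WT mean. The log2 fold change was -0.24 (SE 0.13, 95% interval -0.52 to 0.03, edgeR adjusted p = 0.536). Without WT 777, the library with its highest level, the value was -0.14, and among libraries numbered 573 to 602 it was -0.09. WT 777 also had 53.9 CPM of summed urothelial markers, against 2.58 to 8.87 CPM in the other WT libraries. Marker lists of several epithelial cell types had only negative fold changes, with none past the threshold, namely the thick ascending limb (8 of 8), the distal convoluted tubule (5 of 5), principal cells (5 of 5 tested) and intercalated cells (5 of 5, at 260.1 to 377 CPM in WT and 249.5 to 269.6 CPM in A1cf KO). Fold changes were positive for 5 of 8 proximal tubule markers (median 0.14) and 3 of 5 podocyte markers. Of the 5 urothelial markers, 1 was positive. The part of any of these cell types in the level of Esrp1 was not tested.

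Esrp2 differed less, with a log2 fold change of 0.01 (95% interval -0.15 to 0.17). Celf1, which binds GU-rich elements, was among the steadiest members, from 99.95 through 107 to 112 CPM in WT and from 98.5 through 107 to 109 CPM in A1cf KO. Its log2 fold change was -0.01 (95% interval -0.11 to 0.09). Mbnl2 ran from 48.7 through 66.0 to 75.7 CPM in WT and from 60.9 through 65.0 to 88.6 CPM in A1cf KO, with a log2 fold change of 0.11 (95% interval -0.12 to 0.35). That value was 0.03 without A1cf KO 780, 0.045 without WT 590 and 0.215 with the number series as a covariate. The Mbnl2 medians were within 1 CPM of each other, and A1cf KO 780 alone exceeded the WT range. Mbnl1, Rbfox2 and Qk, the quaking gene, had log2 fold changes of 0.09, 0.03 and 0.08.

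U2af1, U2af2 and Sf3b1 recognise the end of the intron and the branch point. U2af1 ran from 46.4 through 51.7 to 55.8 CPM in WT and from 46.4 through 49.7 to 55.1 CPM in A1cf KO, with a log2 fold change of -0.04 (95% interval -0.17 to 0.09). U2af2, the large subunit that binds the polypyrimidine tract, ran from 84.2 through 91.5 to 98.3 CPM in WT and from 90.6 through 93.3 to 99.4 CPM in A1cf KO, with 0.04 (95% interval -0.06 to 0.14). Sf3b1, the branch-point protein of the U2 particle, had 0.08 (95% interval -0.06 to 0.21). All 3 intervals lay within 1.3-fold.

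Rbm5 and Rbm39 act on splice-site pairing and on U2 recruitment. Rbm5 had the smallest biological coefficient of variation of the 38 members as estimated by edgeR, 0.067. It ran from 100.3 through 101 to 107 CPM in WT and from 104 through 109 to 115 CPM in A1cf KO, and 4 of 6 A1cf KO libraries lay above every WT library. Its log2 fold change was 0.09 (SE 0.04, edgeR unadjusted p = 0.04998, adjusted p = 0.483). Rbm39 ran from 195 through 218 to 245 CPM in WT and from 214 through 222 to 247 CPM in A1cf KO, with 0.05 (95% interval -0.08 to 0.18).

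Cirbp and Rbm3 encode RNA-binding proteins induced by mild cold. Cirbp lies at chr10:80165985-80172786 on the plus strand (mm10) and Rbm3 on chromosome X. Their fold changes had opposite signs. Cirbp ran from 59.4 through 74.8 to 79.9 CPM in WT and from 42.2 through 58.5 to 81.7 CPM in A1cf KO. The A1cf KO libraries lay on both sides, with 4 below every WT library and A1cf KO 584 above every one. The log2 fold change was -0.27 (SE 0.12, 95% interval -0.53 to -0.005, edgeR unadjusted p = 0.0465, adjusted p = 0.475). Without A1cf KO 780 it was -0.18 (edgeR adjusted p = 0.602), and among libraries numbered 573 to 602 it was -0.10.

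Rbm3 ran from 79.9 through 86.3 to 115 CPM in WT and from 84.8 through 100.7 to 103 CPM in A1cf KO. WT 590 was far above the other WT libraries, whose highest was 93.3 CPM, and 5 of 6 A1cf KO libraries exceeded the WT mean. Rbm3 had a log2 fold change of 0.10 (SE 0.09, edgeR adjusted p = 0.716), which was 0.18 without WT 590 (edgeR adjusted p = 0.317) and 0.05 in libraries 573 to 602.

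Other genes of the splicing pathway came from 6 lists with 126 genes, of which 120 were tested (not Srsf12, Rbfox3, Celf5, Celf6, Khdrbs2 and Rbm24, whose counts were too low). None was called by edgeR or by DESeq2, and 8 (6.67%) had an unadjusted p under 0.05, 5 higher and 3 lower in A1cf KO, against 10.4% of all genes (5.07% higher and 5.28% lower). Their median log2 fold change was 0.014. Positive fold changes were found for 8 of 21 U1, Sm and U2 particle proteins, 8 of 22 proteins of the later spliceosome, 7 of 8 kinases of SR proteins, 12 of 18 SR-related and exon junction proteins, 14 of 20 other hnRNPs and poly(rC)-binding proteins and 21 of 31 other regulators, beside 49.2% of all genes. The difference between these lists was not tested.

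Snrnp70, the U1 particle protein that marks the start of the intron, ran from 263 through 288 to 332 CPM in WT and from 248 through 263 to 272 CPM in A1cf KO. Its log2 fold change was -0.15 (SE 0.06, edgeR adjusted p = 0.407). Prpf19, the ubiquitin ligase of the active spliceosome, had -0.10 (edgeR adjusted p = 0.457), and Srpk1, a kinase that sends SR proteins to the nucleus, had 0.13 (edgeR adjusted p = 0.426). Rbm25 had 0.12, and both Syncrip, an hnRNP close in sequence to A1cf, and Elavl1, which stabilises AU-rich mRNAs, had 0.18 (edgeR adjusted p = 0.439 and 0.364).

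Levels also differed between libraries of 1 genotype. The median over members of the log2 difference from the WT mean was lowest in WT 601 (-0.10) and WT 590 (-0.07) and highest in A1cf KO 780 (0.14). WT 590 held the lowest level of 11 members and WT 601 of 9, and A1cf KO 780 held the highest level of 13. Summed over the 38 members, levels ran from 3921 through 4334 to 4419 CPM in WT and from 4142 through 4331 to 4672 CPM in A1cf KO, so that the medians were almost equal. WT 590 and WT 601 were also the libraries with the lowest summed endothelial markers (108 CPM in each), and A1cf KO 780 had 202 CPM, beside 133 to 174 CPM in the other A1cf KO libraries. WT 777, with the highest endothelial sum (219 CPM), had a median member difference of 0.02, and WT 573, with the highest WT sum of members (4419 CPM), had 149 CPM of endothelial markers. The part of endothelial RNA in these levels was not tested.

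**Figure D4:**
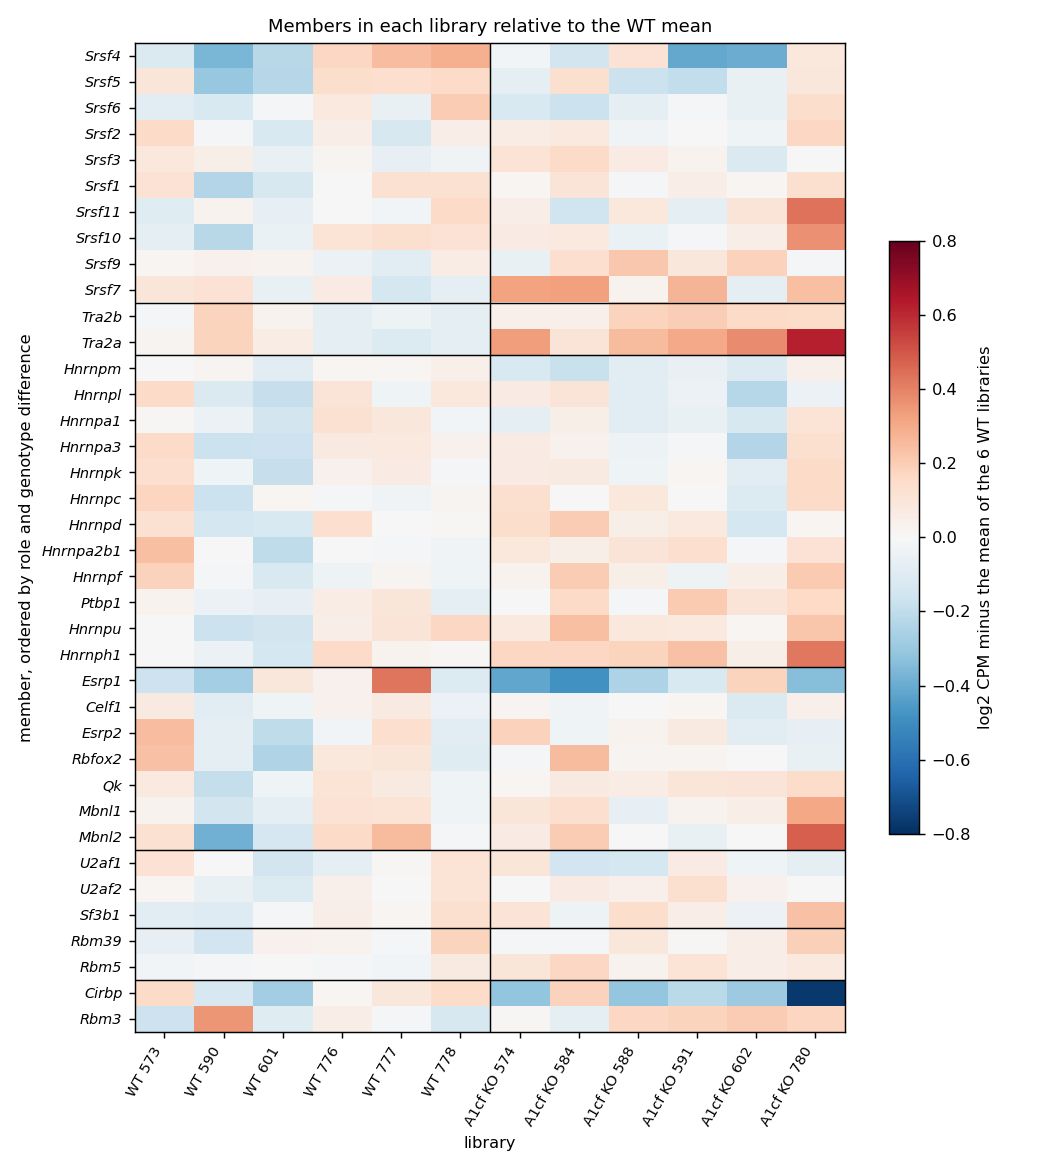
Log2 CPM of each member (lines, grouped by role) in each of the 12 libraries (columns) minus the mean of the 6 WT libraries, red for higher and blue for lower. WT 590 and WT 601 are blue for most members, and A1cf KO 780 holds the strongest red (Tra2a, 0.62) and the strongest blue (Cirbp, -0.77).

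The high and the low number series were therefore compared at equal genotype, with genotype as a covariate. Srsf10 was higher in 776 to 780 and was the 1 member past the edgeR threshold (2.9% of all genes passed, and 2.1% passed as higher). DESeq2 called 4 members, Srsf10, Srsf4, Hnrnph1 and Mbnl2, where it called 6.47% of all genes. By an unadjusted p under 0.05, 12 of 38 members differed, all higher in the high series, where 9.18% of all genes were higher and 9.18% lower. They were Srsf4, Srsf5, Srsf6, Srsf10, Srsf11, Hnrnpa1, Hnrnph1, Hnrnpu, Mbnl1, Mbnl2, Sf3b1 and Rbm39. Of the 120 other splicing genes tested, 24 (20%) were higher in the high series at that p and 5 were lower. The higher ones made up 4 of 8 kinases of SR proteins but 0 of 21 U1, Sm and U2 particle proteins. The members' median log2 difference was 0.058, against -0.006 over all genes. With 1 A1cf KO library in the high series, the comparison rests on that library beside the 3 WT libraries, and without A1cf KO 780 no member was called. Then 6 members had an unadjusted p under 0.05 (Srsf4, Srsf5, Srsf10, Tra2a, Hnrnpu and Mbnl2), and in WT libraries alone 4 had one (Srsf4, Srsf5, Srsf10 and Hnrnpu).

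Srsf10, an SR protein that represses splicing when dephosphorylated (chr4:135855747-135869908, plus strand, mm10), was at 49.7, 44.9 and 50.6 CPM in WT 573, 590 and 601 and at 56.6, 57.4 and 56.7 CPM in WT 776, 777 and 778. The A1cf KO libraries stood at 54.9, 55.4, 50.5, 52.1 and 54.5 CPM in 574, 584, 588, 591 and 602 and at 67.4 CPM in 780. In WT the high series lay above the low series without overlap. The A1cf KO high series is 780 alone, which was the highest A1cf KO library. Srsf10 was named for its series difference, and the share of all genes separated this way was not counted. The log2 difference was 0.27 (SE 0.05, 95% interval 0.16 to 0.38, edgeR adjusted p = 0.0144), and 0.23 in WT libraries alone (edgeR adjusted p = 0.251).

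Srsf4 showed the largest difference. Its WT libraries ran from 11.9 to 14.1 CPM in the low series and from 17.2 to 18.6 CPM in the high series, and its A1cf KO libraries ran from 11.5 to 16.5 CPM in the low series with 16.2 CPM in 780. The series did not overlap in WT, and A1cf KO 780 lay inside the A1cf KO range of the low series. Srsf4 too was named for its series difference, and the share of all genes without such overlap was not counted. The log2 difference was 0.39 (SE 0.11, edgeR adjusted p = 0.0699, DESeq2 adjusted p = 0.0161). Mbnl2 ran from 48.7 to 69.0 CPM in the low series and from 63.0 to 75.7 CPM in the high series of WT, with 88.6 CPM in A1cf KO 780 above 60.9 to 73.2 CPM in the other A1cf KO libraries (log2 difference 0.32, edgeR adjusted p = 0.0758).

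Srsf5 stood at 293 to 297 CPM in the high series of WT and 216 to 285 CPM in the low series (log2 difference 0.24, edgeR adjusted p = 0.151). Srsf11, an SR-like protein, stood at 218 CPM in A1cf KO 780 against 144 to 173 CPM in the other A1cf KO libraries, while its WT series overlapped (log2 difference 0.22, edgeR adjusted p = 0.148). Tra2a went the other way in WT, with 38.8 to 39.8 CPM in the high series and 42.5 to 47.3 CPM in the low series, and had its highest A1cf KO level in 780. Endothelial markers moved with the series, as given above, and fat markers ran from 0.834 to 403 CPM in the low series and from 38.9 to 302 CPM in the high series. All 5 podocyte markers (1 past the threshold) and all 5 urothelial markers (0 past it) had higher levels in the high series, and none of the 8 proximal tubule markers did (median log2 difference -0.25, 0 past the threshold). Their part in the difference between series was not tested.

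**Figure D5:**
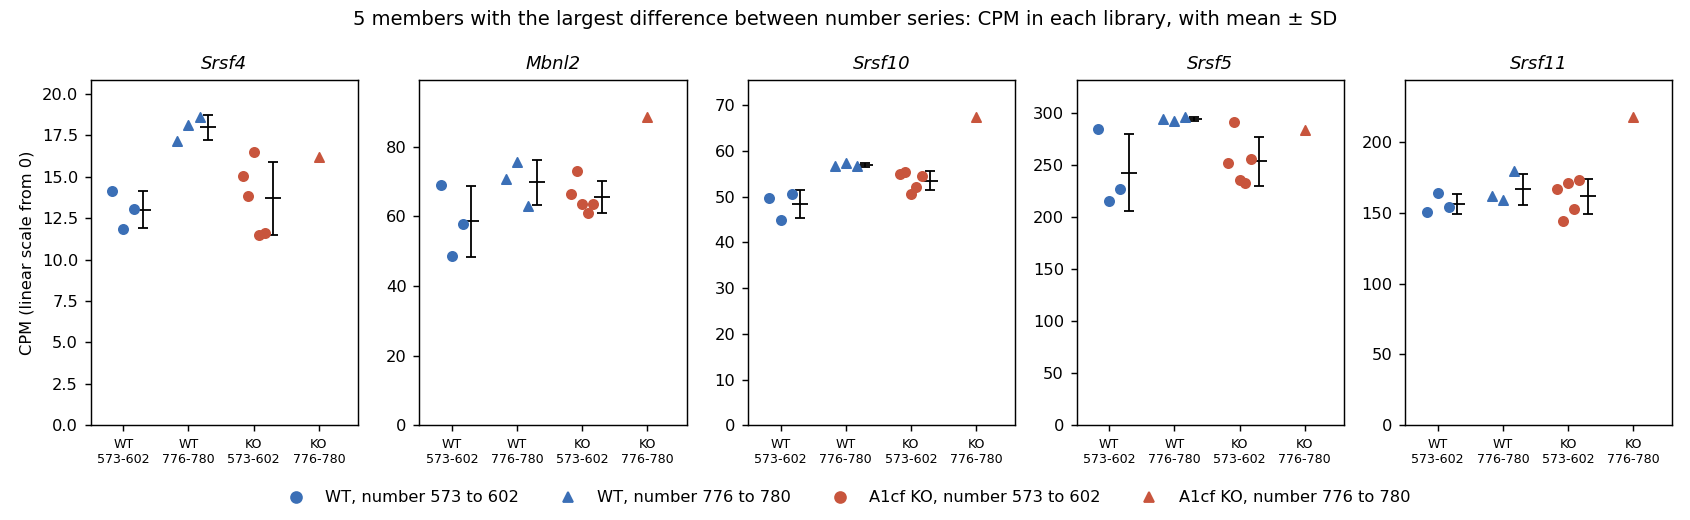
CPM in each library (vertical axes, linear from 0) for the 5 members with the largest difference between number series, split by genotype and series, with the mean and SD where a group has more than 1 library. For Srsf10 the WT libraries 776 to 778 (56.6 to 57.4 CPM) lie above WT 573 to 601 (44.9 to 50.6 CPM), and A1cf KO 780 (67.4 CPM) lies above the other A1cf KO libraries.

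Because the series is uneven between genotypes, the genotype comparison was also fitted with the series as a covariate. No member was called (0.142% of all genes were), 10 members had an unadjusted p under 0.05 (12.9% of all genes), and 33 of 38 fold changes were positive with a median of 0.07. Srsf10, Hnrnpu, Ptbp1, Mbnl1, Mbnl2 and Sf3b1 joined the list, and Tra2b and Rbm5 left it.

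Pairs of members were compared across the 12 libraries, 703 pairs in all, with two-sided permutation p-values adjusted by Benjamini-Hochberg. The muscleblind genes Mbnl1 and Mbnl2 had a Pearson r of 0.93 (p = 5.0e-05, adjusted p = 0.0352) and a Spearman rho of 0.902 (p = 0.00012, adjusted p = 0.0703). Without the 2 libraries farthest from the median of Mbnl1 the r was 0.807, and among the 8 libraries of the low series it was 0.869. The high series holds 4 libraries, too few for a value. Over all pairs, 2 passed by Pearson r and 0 by Spearman rho. The other one was Hnrnpa3 and Hnrnpk, both abundant hnRNPs, with an r of 0.875 (permutation p = 0.00012, adjusted p = 0.0422) and a rho of 0.853 (adjusted p = 0.146), an r of 0.952 without 2 libraries and 0.882 in the low series.

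Tra2a and Cirbp were opposed, with an r of -0.874 (permutation p = 0.0004, adjusted p = 0.0557) and a rho of -0.755 (adjusted p = 0.243). The r was -0.749 without the 2 libraries farthest out and -0.678 in the low series. Tra2a and Tra2b had an r of 0.78 (permutation p = 0.00317, adjusted p = 0.108) and a rho of 0.776 (adjusted p = 0.238), with an r of 0.817 without 2 libraries and 0.633 in the low series. The cold-inducible pair Rbm3 and Cirbp had an r of -0.542 (permutation p = 0.0658, adjusted p = 0.299) and a rho of -0.552 (adjusted p = 0.422), with -0.635 without 2 libraries and -0.479 in the low series. Hnrnpd and Hnrnpl had an r of 0.856 (permutation p = 0.00057, adjusted p = 0.0557) and a rho of 0.776 (adjusted p = 0.238), with 0.859 without 2 libraries and 0.896 in the low series. These pairs share libraries and their depth, and these 4 pairs did not pass after adjustment. An r over all 12 libraries also holds any difference between genotypes. Within genotype the r was 0.583 for Tra2a and Tra2b and -0.449 for Rbm3 and Cirbp. It was -0.868 for Tra2a and Cirbp, 0.947 for Hnrnpd and Hnrnpl, 0.929 for Mbnl1 and Mbnl2 and 0.894 for Hnrnpa3 and Hnrnpk.

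The counts pool all transcripts of a gene. In the GENCODE M21 annotation, 26 of the 38 members (68.4%) have a transcript marked for nonsense-mediated decay, against 27.1% of 14030 tested protein-coding genes matched by name. A retained-intron transcript was annotated for 31 members (81.6%), against 56.5%, and both kinds for 24 (63.2%), against 21%. The median number of annotated transcripts was 10 for members and 5 for those genes. Tra2a has 1 decay-marked transcript, Tra2b 3, Srsf7 1 and Cirbp 1, while Hnrnph1, Srsf10, Mbnl1 and Mbnl2 have none. A higher count of such a gene can hold coding and non-coding transcripts alike, and their shares were not analysed here.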

How the data were processed

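Frozen kidneys gave RNA through a miRNeasy kit, and 1 ug of it per sample went into Illumina TruSeq libraries, per the labels' protocols. The authors deposited 1 table of read counts per gene name for all 12 libraries. Per the file headers, it was made with featureCounts 1.5.0-p2 over exons of GENCODE M8 from trimmed, duplicate-marked, merged alignments, with no option set for strand, read pairs, multi-mapping reads or duplicates. Reads that overlap exons of more than 1 gene are not counted under that program's default. The submitters' processing notes name STAR, DESeq2 and mm10 without versions.

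The tests used edgeR 4.0.16 in R 4.3.3 (filterByExpr by genotype, TMM scaling, quasi-likelihood F test, Benjamini-Hochberg over all 16910 genes tested, threshold 0.05). P-values set the difference between groups against the spread between these libraries. The prior count for log2 CPM was 2. The alternatives were other scalings and filters, DESeq2 1.42.0, limma-voom (limma 3.58.1), a series covariate, the low series alone and each library left out. The scripts were tested on simulated data. The correlations used 100000 permutations.

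The members and lists were chosen with earlier results of these data known. The genes given in full were A1cf, every called member, the 8 members with the smallest genotype p, any member without overlap of the genotypes, the 5 with the largest series difference, the 2 with the highest CPM per kb of each role, and the gene with the smallest p of each list of other splicing genes. Other members named singly, and the pairs other than the Mbnl, Tra2 and cold-inducible ones, were named after their values were seen.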

Additional observations from a re-analysis of the deposited data

Results flagged for a closer look

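In 22 genes and 44 groups of 6 libraries looked at for a lone library, 2 groups held one whose gap to the nearest other library was a large share of the group's range (Dixon's test at 95%), and chance gives about 1 in 20 groups. Srsf10 was at 67.4 CPM in A1cf KO 780, with the other A1cf KO libraries at 50.5 to 55.4 CPM (ratio 0.709). Srsf10 was looked at for its series difference, which in A1cf KO rests on 780, so this gap is not a separate result. Rbm5 was at 107 CPM in WT 778, with the other WT libraries at 100.3 to 102 CPM (ratio 0.702).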

How the results depend on the processing

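Over 21 alternatives of the genotype comparison, no member was called under 20 of them, and DESeq2 called 1 (Tra2a). The number of members at an unadjusted p under 0.05 was 10 with the series covariate, 3 with libraries 573 to 602 only, and 2 (without A1cf KO 591) to 7 (without WT 590) when 1 library was left out; it was also 3 without WT 776 and without WT 777. Tra2a kept its sign in all 21, with adjusted p from 0.0188 to 0.63. Of the genes given in full, 4 changed sign under some alternative. With the series covariate the log2 fold change was 0.011 for Srsf4, 0.031 for Srsf5, 0.014 for Hnrnpa1 and 0.003 for Celf1. In libraries 573 to 602 it was 0.072 for Srsf4 and 0.062 for Srsf5. Leaving out 1 library gave -0.029 to 0.008 for Celf1. Between number series, DESeq2 called 4 members, WT libraries alone gave 0, and leaving out 1 library gave 0 (A1cf KO 780) to 2 (WT 573, WT 778 or A1cf KO 588). The cause of these changes was not tested, and fits with libraries left out also rest on fewer libraries. In simulated counts of genes of all spreads, 48 of 200 differences of 1.3-fold were recovered. The members' median biological coefficient of variation (0.091) was below that of all genes (0.145). The labels name no pairs of WT and A1cf KO libraries, so no paired analysis was made.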
